A study of Arabidopsis thaliana with 9 samples.

Results

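The genes described here had lower signal in anthers of both dyt1 and ams mutants than in wild-type anthers of Arabidopsis thaliana, and their mutant ranges overlapped. A probe set was taken when its lowest wild-type value lay at least 0.75 log2 units above the highest of the 6 mutant values and when the ranges of the dyt1 and ams values overlapped. Cytochrome P450 and UDP-glycosyltransferase genes, SWEET genes, plastid genes and 7 other named genes were left out by name. Of 22746 probe sets, 39 met the condition on values (0.171% of those examined). A9, AT5G62080 and RBOHE were then left out by name, and 36 probe sets remained. The mirrored condition, with both mutants at least 0.75 above wild type, was met by 3 probe sets (0.0132%). The genes were thus chosen by their values in all 9 arrays, and the levels and differences of these genes are a description and no test of them is given.

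The tapetum is the innermost layer of the anther wall and feeds the developing microspores. It secretes enzymes that free microspores from their callose wall, supplies precursors and polysaccharide-modifying proteins for the pollen wall, and later breaks down and leaves lipids and proteins on the pollen surface. DYT1 and AMS encode basic helix-loop-helix transcription factors of this layer. DYT1 acts early, upstream of AMS, and mutants in either gene make no functional pollen.

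Anthers at stages 4 to 7 were dissected from flower buds of plants 3 to 4 weeks old, grown at 22 °C with 16 h of light and 8 h of darkness. The 3 groups were Columbia wild type, dyt1 and ams, with 3 arrays each that the labels call biological replicates; no allele is named. An array sums all cells of the dissected anthers, so fewer tapetal cells and less RNA per cell cannot be told apart. Values are log2 signals per probe set, and a group mean is treated as background when it does not exceed the highest lower quartile of any array (these quartiles ran from 4.58 to 4.78). AMS itself stood at 7.93, 7.70 and 7.55 in wild type, 5.66, 3.96 and 4.78 in dyt1 and 9.61, 9.36 and 9.37 in ams. Its signal in dyt1 fell by 2.93 (limma adjusted p = 0.0288, SE 0.36). In the arrays labelled ams it rose by 1.72 (limma adjusted p = 0.0413, SE 0.36), and each call held in 14 of 21 alternative settings. Leaving out wild type 1, wild type 2, dyt1 3 or any 1 ams array ended both calls, with adjusted p of 0.0561 to 0.164 in dyt1 and 0.0772 to 0.146 in ams by limma. The sources do not say which part of AMS the probes match or where the mutation sits, so the rise is no check of the label. No probe set of the annotation used here names DYT1.

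The arrays differed in ways that partly cut across genotype and partly followed it. The 25S ribosomal RNA control stood at 5.51 to 9.59 in wild type 1 and 2 and dyt1 1 and 3, and at 11.50 to 12.45 in wild type 3, dyt1 2 and the 3 ams arrays. The difference between the 3' and 5' actin controls, which grows as RNA degrades, was 1.04 to 1.38 in the first 4 arrays and 2.10 to 2.92 in the others. The mean of the poly-A spike-ins was 3.85 in wild type 1, 3.76 in wild type 2 and 6.67 to 7.17 in the other 7 arrays. The differences of the genes described here are therefore also given within these array sets.

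A single gene was named for 21 of the 36 probe sets, and 15 had no entry in the annotation used here. All 36 have plain identifiers without the suffixes that mark probe sets shared between genes, as have 95.3% of all probe sets, and none of the 21 genes had another named probe set. Their log2 difference to wild type ranged from -4.34 to -1.08 in dyt1, with a median of -2.48, and from -5.22 to -1.17 in ams, with a median of -2.29. The medians over all probe sets were 0.05 and -0.05. Just inside the 0.75 limit lay an unnamed probe set at a gap of 0.75 and AT3G07450 at 0.76. Just outside lay another unnamed probe set and AT1G30760, both at 0.74, and AT4G35070 at 0.72. A further 5 probe sets had the gap but separate dyt1 and ams ranges, among them AT5G53750 and AT3G18250.

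Genes of lipid transfer proteins, small secreted proteins with a lipid-binding cavity that the tapetum makes in large amounts, gave some of the widest differences. AT3G52130 stood at 13.37, 13.04 and 12.38 in wild type, 10.66, 5.35 and 10.56 in dyt1 and 11.13, 9.01 and 8.74 in ams. AT3G07450 stood at 13.33, 13.10 and 12.03 in wild type, 11.26, 4.88 and 10.90 in dyt1 and 9.80, 6.09 and 6.91 in ams. For both genes dyt1 2 was the lowest of the 9 arrays and lay far below dyt1 1 and 3, and ams 1 was the highest ams array. AT3G07450 was lower in all ams arrays than in dyt1 1 and 3, whereas the ams values of AT3G52130 lay on both sides of these. AT3G52130 was lower than wild type by 16.8-fold in dyt1 and 9.86-fold in ams on the group means, and AT3G07450 by 13.9-fold and 37.2-fold. Without dyt1 2 the dyt1 folds were 4.99 and 3.32, and with dyt1 1 or 3 left out instead they were 26.8 to 31.4. Without ams 1 the ams folds were 16.6 and 79.5, and without ams 2 that of AT3G07450 was 22.0. The SD was large where 1 array stood apart, at 3.04 and 3.59 for these genes in dyt1 against 0.50 and 0.70 in wild type.

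**Figure D1:**
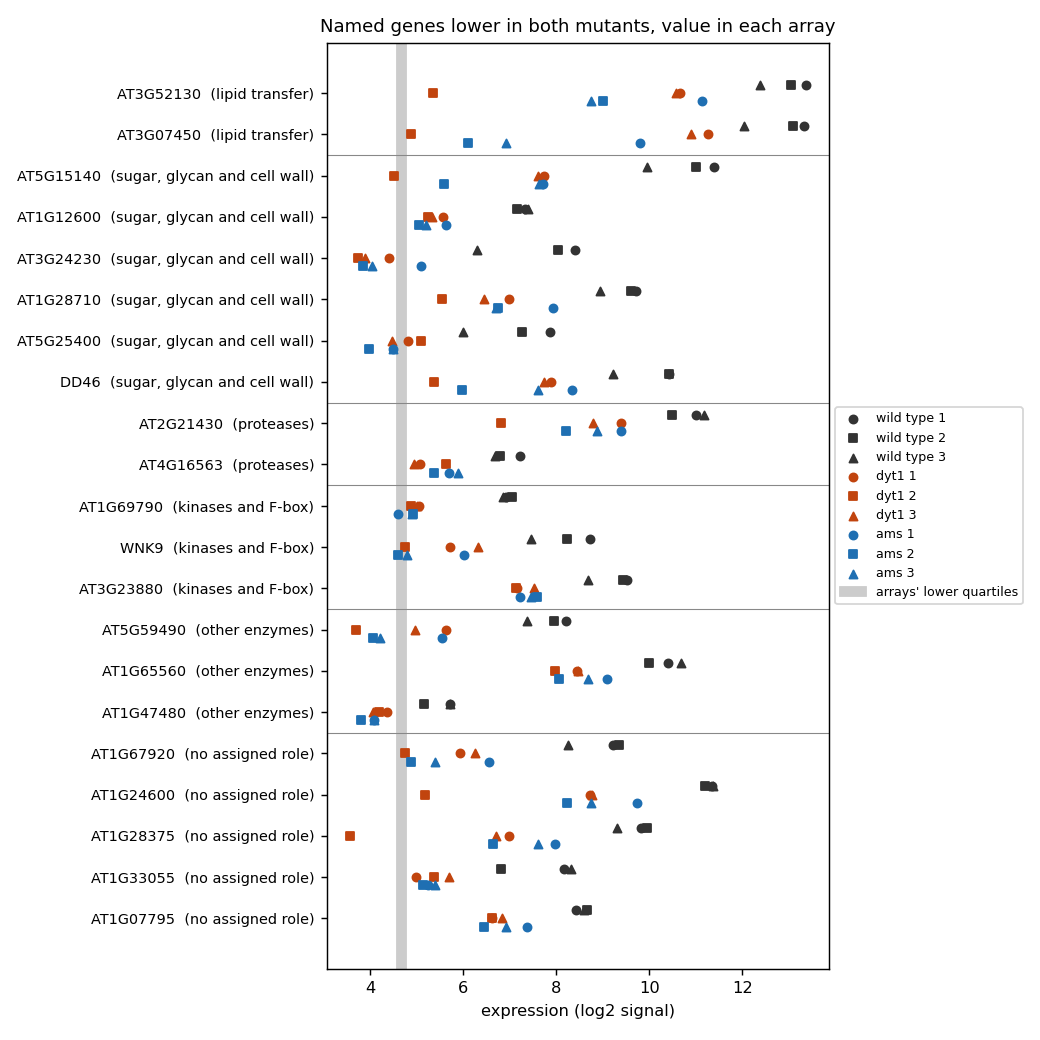
Log2 signal (x axis) of the 21 named genes in each of the 9 arrays; colour marks the genotype, marker shape the array number, and the grey band spans the arrays' lower quartiles (4.58 to 4.78). Every wild-type point lies right of every mutant point by the choice of genes, and dyt1 2 lies far left of dyt1 1 and 3 for AT3G52130 and AT3G07450 but not for AT1G69790 or AT1G12600.

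Of the named genes, 6 were placed in a group for sugars, glycans and the cell wall, the largest of the role groups assigned here. The share of such genes among all named genes was not computed, so nothing is read from this number. AT5G15140 encodes a protein of the galactose mutarotase-like family and stood at 11.39, 11.01 and 9.95 in wild type, 7.73, 4.50 and 7.61 in dyt1 and 7.72, 5.59 and 7.62 in ams. Wild type 3 was the lowest wild-type array, and dyt1 2 was at background. The group means were 18.0-fold lower in dyt1 and 14.0-fold lower in ams, and without array 2 of each mutant 8.65-fold and 8.66-fold. DD46, a member of the galactosyltransferase family, stood at 10.41, 10.42 and 9.22 in wild type, 7.88, 5.36 and 7.73 in dyt1 and 8.34, 5.97 and 7.60 in ams. It repeated the order of AT5G15140 in both mutants, with array 2 the lowest of each, and was 8.13-fold lower in dyt1 and 6.53-fold in ams, or 4.62-fold and 4.12-fold without that array. AT1G28710, a nucleotide-diphospho-sugar transferase, stood at 9.71, 9.61 and 8.93 in wild type, 6.98, 5.54 and 6.45 in dyt1 and 7.92, 6.75 and 6.69 in ams. It was 8.54-fold lower in dyt1 and 4.91-fold lower in ams.

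A pair of nucleotide sugar transporter genes belongs to the same group; such proteins carry activated sugars into the Golgi or endoplasmic reticulum, where glycans are built. AT1G12600 stood at 7.33, 7.15 and 7.40 in wild type, 5.56, 5.25 and 5.33 in dyt1 and 5.62, 5.05 and 5.20 in ams. Its values were even within every genotype, with SDs of 0.13, 0.16 and 0.30, and the means were 3.76-fold lower in dyt1 and 3.99-fold lower in ams. AT5G25400 stood at 7.85, 7.25 and 5.98 in wild type, 4.81, 5.10 and 4.46 in dyt1 and 4.48, 3.97 and 4.48 in ams. Here wild type 3 was the lowest wild-type array, the ams mean could not be told from background and the dyt1 mean of 4.79 lay close to it. AT3G24230 belongs to the pectate lyases, enzymes that cut pectin in cell walls, and stood at 8.40, 8.03 and 6.29 in wild type, 4.39, 3.74 and 3.89 in dyt1 and 5.09, 3.85 and 4.04 in ams. Both mutant means were at background, so the differences of -3.56 and -3.24 are differences of signal, and wild type 3 again lay below wild type 1 and 2. Over the 6 genes the median difference was -3.06 in dyt1 and -2.71 in ams.

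Protease genes numbered 2. AT2G21430, a papain-type cysteine protease, stood at 10.99, 10.49 and 11.18 in wild type, 9.39, 6.80 and 8.78 in dyt1 and 9.40, 8.21 and 8.86 in ams. Wild type spanned 0.68, and dyt1 2 lay below the mean of dyt1 1 and 3 by a difference of -2.29. The means were 5.91-fold lower in dyt1, or 3.48-fold without dyt1 2, and 4.18-fold lower in ams. AT4G16563, of the aspartyl protease family, stood at 7.21, 6.78 and 6.67 in wild type, 5.07, 5.62 and 4.94 in dyt1 and 5.69, 5.38 and 5.89 in ams. Its differences were smaller, 3.20-fold in dyt1 and 2.35-fold in ams, and here dyt1 2 was the highest dyt1 array.

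Genes of signalling and protein turnover were 3, of which AT1G69790 varied little between arrays of a genotype. AT1G69790 encodes a protein kinase and stood at 6.92, 7.04 and 6.86 in wild type, 5.06, 4.87 and 4.99 in dyt1 and 4.59, 4.92 and 4.90 in ams. The ranges within each genotype did not exceed 0.33, and the means were 3.91-fold lower in dyt1 and 4.39-fold lower in ams. Its mutant means of 4.97 and 4.81 lay just above the background limit of 4.78, so these mutant ranges and folds are near the floor. AT3G23880, an F-box protein of the kind that selects targets for ubiquitination, stood at 9.51, 9.44 and 8.68 in wild type, 7.14, 7.12 and 7.52 in dyt1 and 7.22, 7.58 and 7.45 in ams. Its values spanned 0.83 in wild type, where array 3 was the lowest, 0.40 in dyt1 and 0.36 in ams, and the means were 3.85-fold and 3.47-fold lower. WNK9, of the with-no-lysine protein kinases, stood at 8.73, 8.23 and 7.46 in wild type, 5.71, 4.74 and 6.31 in dyt1 and 6.01, 4.60 and 4.80 in ams. Array 2 was the lowest of each mutant, and ams 2 was at background. The means were 5.87-fold lower in dyt1 and 8.02-fold lower in ams.

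The other enzyme genes were 3. AT5G59490, a haloacid dehalogenase-like hydrolase, stood at 8.20, 7.94 and 7.37 in wild type, 5.62, 3.69 and 4.96 in dyt1 and 5.55, 4.07 and 4.22 in ams. Both mutant means were at background, and the differences of signal were -3.08 and -3.23. AT1G65560, a zinc-binding dehydrogenase, stood at 10.40, 9.98 and 10.69 in wild type, 8.44, 7.96 and 8.46 in dyt1 and 9.08, 8.06 and 8.69 in ams. It was well above background in all mutant arrays and was 4.19-fold lower in dyt1 and 3.35-fold lower in ams. AT1G47480, of the carboxylesterase family, stood at 5.71, 5.15 and 5.72 in wild type, 4.36, 4.18 and 4.05 in dyt1 and 4.07, 3.81 and 4.08 in ams. Its 6 mutant values were at background.

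No role is stated for the remaining 5 named genes. AT1G24600 stood at 11.34, 11.19 and 11.36 in wild type, 8.73, 5.17 and 8.77 in dyt1 and 9.74, 8.22 and 8.74 in ams. AT1G28375 stood at 9.81, 9.94 and 9.30 in wild type, 6.98, 3.56 and 6.70 in dyt1 and 7.96, 6.63 and 7.61 in ams. Their wild-type values spanned 0.18 and 0.64, and dyt1 2 lay below dyt1 1 and 3 by -3.58 and -3.28. The means were 13.3-fold and 15.3-fold lower in dyt1 and 5.27-fold and 4.88-fold lower in ams. The dyt1 folds were 5.83 and 7.18 without dyt1 2, and 20.02 and 23.51 without dyt1 1. For AT1G28375 dyt1 2 was at background, so its folds that include this array hold a value at the floor. AT1G67920 stood at 9.21, 9.35 and 8.25 in wild type, 5.93, 4.74 and 6.26 in dyt1 and 6.54, 4.87 and 5.38 in ams. Wild type 3 was its lowest wild-type array, and array 2 the lowest of each mutant. AT1G33055 stood at 8.16, 6.81 and 8.30 in wild type, 4.98, 5.36 and 5.70 in dyt1 and 5.24, 5.13 and 5.39 in ams. In AT1G33055 wild type 2 was the lowest wild-type array, and the values spanned 0.72 in dyt1 and 0.26 in ams. AT1G07795 stood at 8.43, 8.65 and 8.60 in wild type, 6.63, 6.62 and 6.84 in dyt1 and 7.36, 6.44 and 6.91 in ams, and its wild-type and dyt1 values each spanned 0.22.

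The 15 unnamed probe sets ranged from -4.34 to -1.08 in dyt1 and from -4.09 to -1.17 in ams, where AT3G07450 of the named genes went lower. The one with the widest gap of all 36, at 2.46, stood at 10.20, 9.87 and 10.09 in wild type, 7.26, 5.83 and 7.41 in dyt1 and 6.46, 6.32 and 7.10 in ams. The next of the unnamed, with a gap of 1.83, stood at 10.33, 9.63 and 9.89 in wild type, 6.26, 6.25 and 7.34 in dyt1 and 6.04, 6.46 and 7.80 in ams. In both, every mutant array lay far below every wild-type array. They were 9.29-fold and 10.1-fold lower in dyt1 and 10.8-fold and 9.08-fold lower in ams. Another unnamed probe set had its highest value in wild type 3, at 11.78 against 9.13 and 8.69 in wild type 1 and 2. It had the widest dyt1 difference of the set, 20.3-fold, or 10.5-fold without wild type 3 and 13.3-fold without dyt1 2. Its dyt1 2 value of 4.29 was at background.

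These genes differed between arrays of 1 genotype. Array dyt1 2 was the lowest of the 3 dyt1 arrays for 29 of the 36 probe sets, against 36.8% of all probe sets, and lay more than 1 log2 unit below the mean of dyt1 1 and 3 for 18, against 7.94% of all. Array ams 2 was the lowest of its group for 25, against 28.6% of all, and lay more than 1 below the mean of ams 1 and 3 for 9, against 1.01% of all. The median over the 36 was 6.80, 5.30 and 6.51 in dyt1 1, 2 and 3 and 6.86, 6.02 and 6.80 in ams 1, 2 and 3. In wild type it was 9.29, 9.17 and 8.64. Array dyt1 2 also differed from dyt1 1 and 3 in 25S signal (11.50 against 7.42 and 6.20) and in the actin difference (2.10 against 1.04 and 1.38). Array ams 2 lay between ams 1 and 3 in 25S signal (11.96 against 11.59 and 12.42) and in the actin difference (2.75 against 2.92 and 2.67). The part of these measures in the order of the arrays was not tested.

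**Figure D2:**
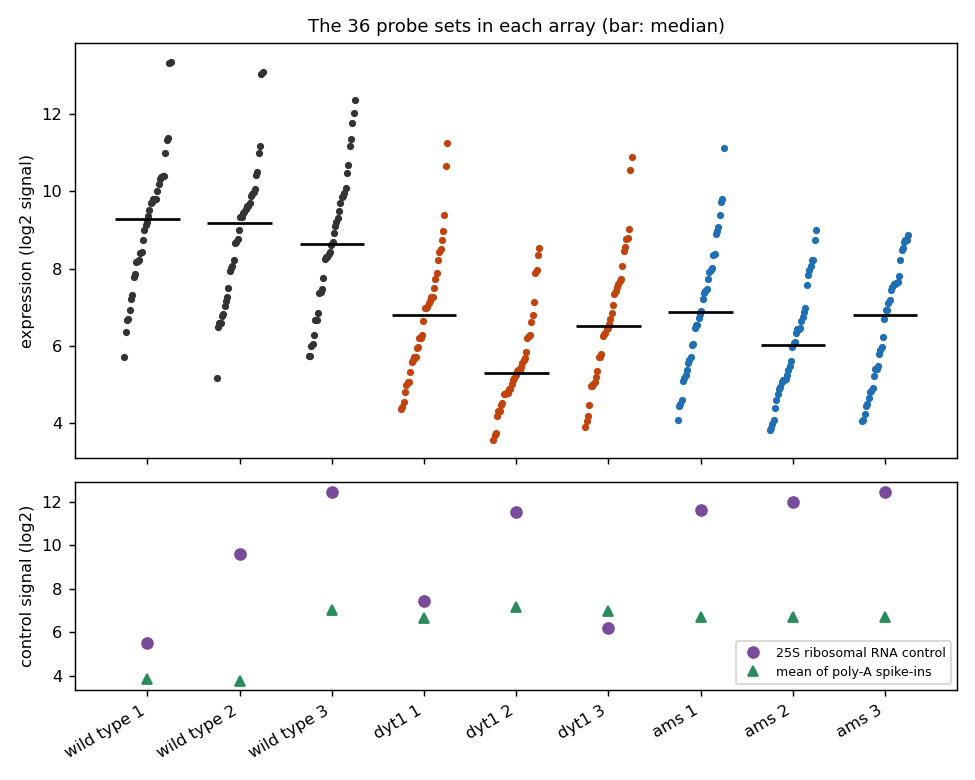
Upper panel: log2 signal of the 36 probe sets in each array, with a bar at the median. Lower panel: the 25S ribosomal RNA control and the mean of the poly-A spike-ins (log2) in the same arrays; the median of the 36 is 5.30 in dyt1 2 and 6.02 in ams 2, the lowest of each mutant.

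For 12 of the 36 the values of each genotype spanned under 1 log2 unit, among them AT1G69790, AT1G12600, AT3G23880, AT1G07795, AT1G47480 and AT4G16563. For 10 the dyt1 values spanned over 2, against 3.74% of all probe sets, and in all 10 dyt1 2 was the lowest. The 7 named ones were AT3G07450, AT3G52130, AT1G24600, AT1G28375, AT5G15140, AT2G21430 and DD46. Leaving out dyt1 2 moved the dyt1 fold by over 1.5 times for 10 of the 32 with a fold. The ams values spanned over 2 for 5 of the 36, against 0.818% of all probe sets.

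The differences were present in each array set, as the choice of genes requires, but their size varied. Among the arrays of low 25S signal, dyt1 1 and 3 lay below wild type 1 and 2 by a median of -2.14 (range -4.07 to -1.02). These pairs of arrays also differ in spike-in level, which cannot be told apart from genotype there. In the high 25S set, dyt1 2 against wild type 3 gave a median of -2.92 (range -7.48 to -0.89), with 1 array on each side. The ams arrays against wild type 3 gave a median of -2.01 (range -6.00 to -1.02), and against wild type 1 and 2 a median of -2.30. The same differences over all probe sets had medians between -0.05 and 0.09. The ams arrays differ from wild type 1 and 2 in 25S signal, actin difference and spike-in level, which cannot be told apart from genotype there. AT3G07450 moved most between sets in dyt1, from -2.13 in the low 25S set to -7.15 in the high 25S set. AT5G25400 went the other way, from -2.92 in the low 25S set to -0.89 in the high 25S set. Its dyt1 mean of 4.79 lay close to the background limit of 4.78, and wild type 3 was its lowest wild-type array, at 5.98. AT1G69790 was steady, at -1.95 and -1.99, but its mutant values of 4.59 to 5.06 lay near the background limit of 4.78.

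**Figure D3:**
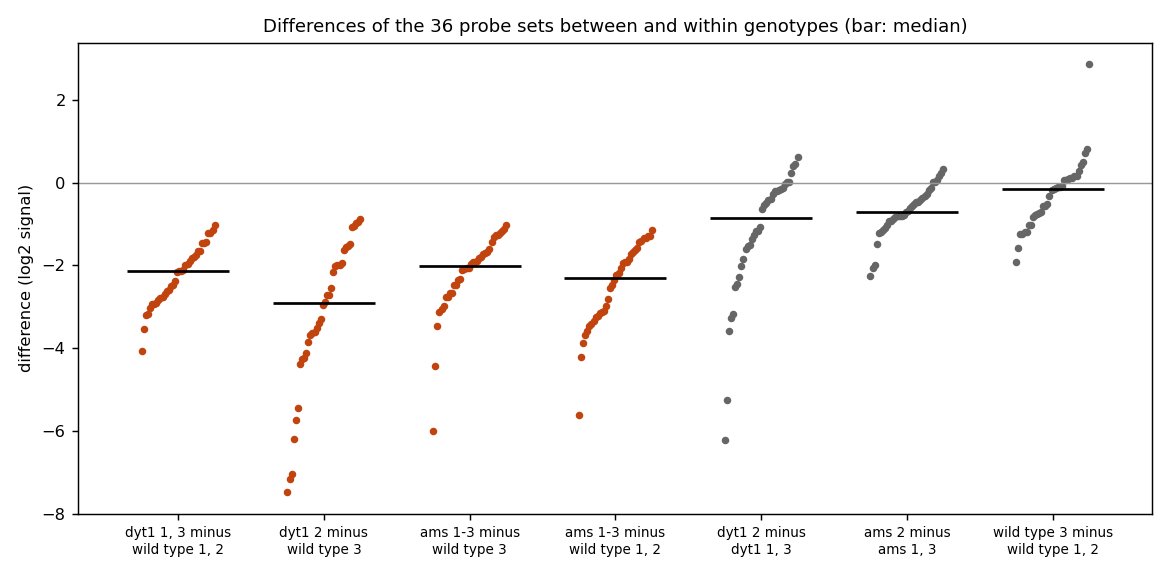
Log2 differences of the 36 probe sets, each point 1 probe set and each bar the median. The first 4 columns (red) are mutant minus wild type within or across array sets, with medians of -2.14, -2.92, -2.01 and -2.30; the last 3 (grey) are differences between arrays of 1 genotype, with medians of -0.86, -0.70 and -0.16.

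Set side by side, the dyt1 mean was below the ams mean for 22 of the 36, against 41.7% of all probe sets, with a median difference of -0.18. With dyt1 2 left out it was below for 12 of 36, and the median was 0.13. AT1G28375 and AT1G24600 had the lowest dyt1 means relative to ams, at -1.65 and -1.34, which became -0.56 and -0.15 without dyt1 2. AT3G07450 was higher in dyt1 than in ams by 1.41, and by 3.48 without dyt1 2. These differences were not tested, since the choice of genes requires the ranges of the mutants to overlap.

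In limma's fit over all probe sets, 13 of the 36 had an adjusted p under 0.05 for dyt1 and 26 for ams, all lower than wild type. Of all probe sets, dyt1 had 0.193% called, 0.119% lower and 0.0747% higher, and ams had 3.51% called, 1.06% lower and 2.45% higher. Both comparisons share the wild-type arrays and both were used to choose the genes, so nothing is read from these counts.

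The size of the set followed the limit and the arrays. A gap of 0.5 gave 60 probe sets and a gap of 1 gave 22. Without wild type 3 the condition was met by 110 probe sets and without wild type 2 by 78. Fewer values then bound the gap, so all 36 had to remain among them. Leaving out a mutant array can end the overlap of the mutant ranges. Of the 36, 31 still met the condition without dyt1 2 or without ams 2, and 32 without dyt1 3. The number was 34 without dyt1 1 or without ams 1, and 36 without ams 3.

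Of 66 genes listed for tapetal regulation, the pollen wall, tapetal secretion, callose and tapetal cell death, 21 were named by a probe set, of which AT3G52130 is one of the 36 described above. Of the other 20, 1 fell and 0 rose in dyt1, and 1 fell and 2 rose in ams (limma, adjusted p under 0.05); at an unadjusted p under 0.05 the numbers were 9 and 5. Their median difference was -1.91 in dyt1, where 16 of 20 lay below wild type, and -0.64 in ams, where 13 did. Over all probe sets the medians were 0.05 and -0.05. The shares of all probe sets below wild type or at an unadjusted p under 0.05 were not computed, so nothing is read from these counts. Array dyt1 2 carried part of the dyt1 count. BHLH091, chosen after its values were seen, stood at 8.34, 4.73 and 8.10 in dyt1 and 7.24, 7.85 and 6.30 in wild type. Without RBOHE, A9 and AT5G62080, which met the condition on values as the 36 did, the medians of the remaining 17 were -1.37 and -0.17, with 13 and 10 below wild type; in ams 0 of these fell by limma, and 3 had an unadjusted p under 0.05. AMS was the 1 called gene of 6 measured regulators, in both comparisons. RBOHE, an NADPH oxidase of the tapetum, fell by 3.35 in ams (SE 0.55, limma adjusted p = 0.0151) and lay at -3.31 in dyt1 (limma adjusted p = 0.065). Its ams call was lost without wild type 1, wild type 2, ams 2 or ams 3 (limma adjusted p = 0.0619 to 0.0737), and its dyt1 value passed without wild type 3 or dyt1 2 (limma adjusted p = 0.0447 and 0.0266). DELTA-VPE, a vacuolar processing enzyme, stood at 5.33, 4.33 and 4.02 in wild type, 5.07, 4.17 and 4.89 in dyt1 and 9.72, 10.31 and 9.99 in ams. Its wild-type and dyt1 means were at background, and the signal in ams rose by 5.45 from there (SE 0.37, limma adjusted p = 0.000134), with all 3 ams arrays far above the other 6.

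The 6 lipid transfer and pollen coat genes outside the set were all below wild type in dyt1, with a median of -4.24, and 4 of 6 were below in ams, with a median of -1.35; limma called 0 of them, and 5 and 1 had an unadjusted p under 0.05. A9 and AT5G62080, which met the condition on values, are among the 6. The other 4 were all below wild type in dyt1, with a median of -4.57. In ams 2 of these 4 were below, with a median of -0.30. The sizes of the dyt1 medians rest in part on dyt1 2. The summed log2 signal of the 6 was 47.03, 29.19 and 45.27 in dyt1 1, 2 and 3, and 60.74 to 69.50 in wild type. Medians without dyt1 2 were not computed. AT5G52160, of the lipid transfer family, stood at 9.82, 10.51 and 11.87 in wild type, 6.44, 4.25 and 5.98 in dyt1 and 10.52, 8.75 and 7.97 in ams, a difference of -5.18 in dyt1 (SE 0.81, limma adjusted p = 0.0549). In dyt1 it passed in 9 of 21 alternative settings, among them without wild type 3 or dyt1 2 (limma adjusted p = 0.0445 and 0.03). In the others the limma adjusted p reached 0.178. ATA27, a beta-glucosidase, stood at 7.16, 7.13 and 11.59 in wild type, 4.00, 3.69 and 3.88 in dyt1 and 11.99, 9.09 and 11.71 in ams. Here wild type 3 lay among the ams arrays and wild type 1 and 2 lay between these and dyt1. Of the exine genes, KNS4, a galactosyltransferase of pollen wall formation, lay at -3.69 in dyt1 and -1.60 in ams (limma adjusted p = 0.224 and 0.467), and with the 25S array set as a block the ams value was 0.31. Without dyt1 2 both passed, at -2.03 and -1.60 (limma adjusted p = 0.0499 and 0.0478). SHT, which conjugates spermidine for the pollen coat, lay at -1.92 in dyt1 and 1.95 in ams (limma adjusted p = 0.508 and 0.398), with wild type 3 far above wild type 1 and 2. Without wild type 3 the values were -0.28 and 3.58 (limma adjusted p = 0.837 and 0.0121), without wild type 1 they were -2.90 and 0.96, and with the 25S block the ams value was 0.42. The callose-degrading enzyme gene AT3G23770 lay at -4.06 and -2.73 (limma adjusted p = 0.296 and 0.355), and the ams value was -4.55 without ams 1 and -1.32 without ams 2. UND, an aspartic protease gene, lay at -1.37 in dyt1 (limma adjusted p = 0.54), where its mean was at background, and at -0.53 without wild type 3.

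**Figure D4:**
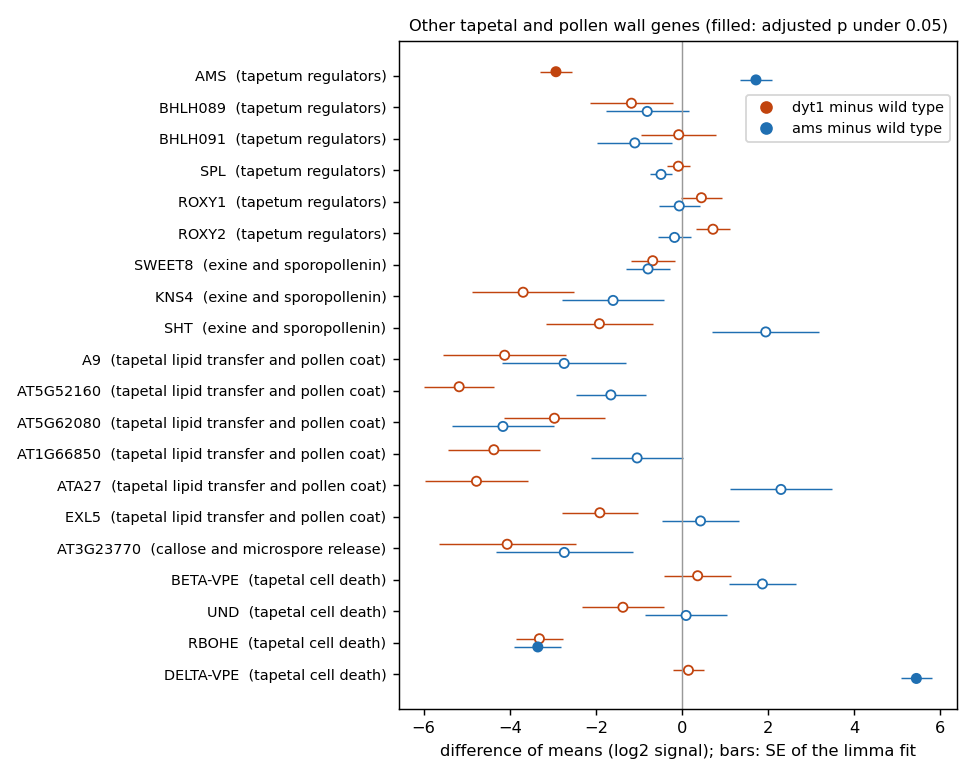
Difference of means to wild type (log2 signal, x axis) in dyt1 and ams for the 20 measured tapetal and pollen wall genes outside the set; bars are the SE of the limma fit and filled points have an adjusted p under 0.05. Points lie left of 0 for 16 of 20 genes in dyt1 and 13 of 20 in ams, and DELTA-VPE is far right in ams at 5.45.

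The lists for other cells and tissues and the reference genes held 18 measured genes, of which limma called 0 in dyt1 (3 at an unadjusted p under 0.05) and 1 in ams, LHCB4.2 of the light-harvesting complex, which rose by 1.23 (SE 0.18, limma adjusted p = 0.00908). The summed log2 signal of 4 measured meiosis genes of 20 listed was 20.54 to 26.80 in wild type, 23.51 to 25.30 in dyt1 and 22.03 to 26.62 in ams. For 3 of 13 genes of early anther cell fate it was 21.91 to 22.00, 20.74 to 25.10 and 21.87 to 22.08. For 2 of 6 green tissue genes it was 21.91 to 22.49, 21.89 to 22.89 and 23.18 to 23.93; LHCB4.2 carried this, and LHCB4.1 lay at 0.13 in ams (limma adjusted p = 0.727). For 4 of 7 maturing pollen genes it was 17.23 to 17.83, 17.57 to 17.95 and 15.98 to 16.36, sums of probe sets mostly at background, so no difference is read from them. For 2 of 7 carpel and ovule genes it was 13.84 to 14.05, 12.74 to 14.57 and 13.32 to 14.29. Their part in the differences of the 36 was not tested.

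The genome positions of the 36 were known for the 21 named genes. By RefSeq gene order in assembly TAIR10.1, 11 of the 21 lie on chromosome 1 (52.4%), which holds 25.8% of the genes named on the array, and 1, 4, 1 and 4 lie on chromosomes 2 to 5. No member lies next to another, and the closest pair has 34 genes between. Of the 42 genes adjacent to members, 23 were measured. In dyt1 limma called 0 of these (1 at an unadjusted p under 0.05), and in ams 2 rose and 0 fell (5 at an unadjusted p under 0.05). Their median differences were 0.01 and -0.09. Of all probe sets, limma called 0.193% in dyt1, and 2.45% higher and 1.06% lower in ams. The shares at an unadjusted p were not computed, and nothing is read from these few genes. AT5G59480, next to AT5G59490 and of the same hydrolase family, stood at 6.14, 6.47 and 5.71 in wild type, 6.52, 6.37 and 6.06 in dyt1 and 8.00, 7.85 and 7.45 in ams, and rose by 1.66 in ams (SE 0.24, limma adjusted p = 0.00775). AT1G22010, next to DD46, stood at 4.73, 4.71 and 5.84 in wild type, 4.52, 4.61 and 4.68 in dyt1 and 7.74, 6.34 and 7.54 in ams, and rose by 2.11 in ams (SE 0.41, limma adjusted p = 0.0289). The call of AT1G22010 was lost without wild type 1 or 2, dyt1 1 or 3, or ams 1 or 3 (limma adjusted p = 0.053 to 0.127) and with the 25S array set as a block (limma adjusted p = 0.0942). Both genes were chosen after their values were seen.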

How the data were processed

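Total RNA of dissected anthers was hybridised to Affymetrix arrays, 1 array per sample, 3 per genotype. The deposited values are log2 signals, summarised per probe set with RMA per the submitters' processing notes. Folds of dim probe sets may be understated by this processing, which was not tested here. Array scanner files, slides and scan dates were not used here.

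Of 22810 probe sets, 64 controls were set aside and 22746 were fitted with limma 3.58.1 in R 4.3.3 (lmFit and eBayes, 9 arrays, genotype as the factor, Benjamini-Hochberg over all probe sets). Called means an adjusted p under 0.05. The arrays are called biological replicates; nothing says that they came from separate plants, so p-values measure the spread between these samples, and precision is limited by the array number. The script was tested on simulated data.

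The platform annotation gave 13513 probe sets 1 gene, 503 several and 8730 none; 13436 matched RefSeq (TAIR10.1), and a gene with several probe sets was represented by the one with the highest mean. Names could not be applied to the 15 unnamed members, so genes to be left out by name may be among them. Members and lists were chosen with earlier results of these data known. Named genes: every member with 1 gene, and for each tapetal list and comparison the called genes, or the pair with the largest differences where none was called, plus called genes of the other lists. The alternatives were other centring, floors, filters, fits, blocks and left-out arrays; folds without each array, list counts without genes that met the condition, and the values within array sets were added after seeing the data. No promoter sequences were used here, so the planned motif comparison was not run.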

Additional observations from a re-analysis of the deposited data

How the results depend on the processing

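The differences of all 36 members stayed below 0 under each scaling, the value closest to 0 being -1.004 in ams with arrays centred on the reference genes. The members were chosen by a gap of at least 0.75, so this outcome was all but fixed and nothing is read from it. Of the 36, 36 met the condition on values with arrays centred on their median or floored at the 20th percentile, 31 with quantile normalization run again and 24 with reference-gene centring. That centring moved the median of all probe sets from 0.05 to -0.14 in dyt1 and from -0.05 to 0.11 in ams, and median centring moved it to -0.06 and -0.17. Leaving out 1 array gave 33 to 110 probe sets by the condition, a dyt1 median of -2.69 to -2.02 and an ams median of -2.54 to -2.05. The condition gave 109 probe sets without wild type 3 and dyt1 2, 60 with a gap of 0.5 and 22 with a gap of 1.

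The number of probe sets called varied; the cause was not tested. In dyt1 it was 44 (17 higher, 27 lower), and became 29 with quantile normalization, 100 with reference-gene centring (15 higher, 85 lower), 90 with floored values (57 higher, 33 lower), 8 with only the groups compared, 8744 with array weights (4750 higher, 3994 lower), 274 with the 25S array set as a block and 3720 without wild type 3 and dyt1 2 (2215 higher, 1505 lower). It stayed 44 with median centring (10 higher, 34 lower). Leaving out 1 array gave 1 to 702, the highest without dyt1 2 and 541 without wild type 3. In ams it was 798 (558 higher, 240 lower), and became 8916 with array weights (3954 higher, 4962 lower) and 7862 without wild type 3 and dyt1 2 (3693 higher, 4169 lower). Leaving out 1 array gave 279 to 4146, the highest without wild type 3.

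Of the list genes, 1 was called in dyt1. The number was 2 with median centring, floored values, dim probe sets left out or a mean-variance trend, 3 with reference-gene centring or the 25S block, 0 with only the groups compared, 12 with array weights, 9 without wild type 3 and dyt1 2, and 0 to 5 with 1 array left out. In ams 4 were called, 7 with only the groups compared, 18 without wild type 3 and dyt1 2 or with array weights, and 2 to 9 with 1 array left out. Over 399 alternative values of single named genes, 336 kept their side of the threshold, 36 gained a call, 26 lost one and 1 turned, KNS4 in ams at 0.31 with the 25S block. RBOHE kept its ams call in 17 of 21 alternatives, DELTA-VPE, LHCB4.2 and AT5G59480 in 21 and AT1G22010 in 13.

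The labels do not say that equal replicate numbers pair the arrays. For each probe set the genotype mean was subtracted, and the remaining deviations were correlated between arrays of different genotypes. These are correlations of deviations and not of whole expression profiles. Arrays of equal number had correlations of -0.01 to 0.24, with some under 0.1. Arrays of unequal number had correlations of -0.27 to 0.14. Whether the numbers mark a shared batch was not tested. With the numbers as a replicate block, 54 probe sets and 2 list genes were called in dyt1 and 545 and 4 in ams.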
